A study of Drosophila melanogaster with 31 samples.

Results

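The 8 genes described here, Sod1, Sod2, Cat, Jafrac1, Gclc, Gclm, Keap1 and cnc, belong to the antioxidant defence of the cell. They were listed by name and found by their FlyBase identifiers among the 17559 genes of the count table. RNA was sequenced from single clones of about 50 cells. They were isolated by laser microdissection in eye discs of wandering larvae, epithelia from which the adult eye develops. The 31 libraries formed 8 groups. Under nutrient restriction (NR) these were Tsc1 foxoRi, Tsc1, foxoRi and wt clones, and on normal food the same 4, called genotypes here. The Tsc1 clones were homozygous for the allele Q87X of Tsc1, an inhibitor of mTORC1, and foxoRi denotes RNAi against the transcription factor foxo. NR food held 10% of the yeast of normal food, and larvae under NR were older when dissected. All larvae received a heat shock of 11 min at 37°C at 36 h after egg laying to induce clones, and all carried the MARCM elements, with Gal4 under the tubulin promoter and temperature-sensitive Gal80. Both foxoRi groups of each food were shifted to 30°C for the last 12 h, and the groups without foxoRi stayed at 25°C. Knockdown and temperature therefore cannot be told apart. According to the study, the unshifted control clones came from siblings of the shifted larvae. Groups with and without foxoRi thus differ in the shift, and whether unshifted clones carried the RNAi transgene is not stated in its text. Larvae were not selected for sex. The study worked with 29 samples, and the 2 libraries with the fewest genes detected, foxoRi replicate 3 under NR and replicate 4 of the wt clones fed normally, were left out here. The groups then had 4 libraries each, except wt on normal food with 3 and foxoRi under NR with 2. Whether clones of a group came from separate larvae was not given, so p-values measure the spread between clones.

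Superoxide dismutases turn superoxide into hydrogen peroxide. Sod1 is the cytosolic copper and zinc enzyme and Sod2 the mitochondrial manganese enzyme. Hydrogen peroxide is then broken down by catalase (Cat), mostly in peroxisomes, or reduced by peroxiredoxins such as Jafrac1 with electrons from thioredoxin. Gclc and Gclm, the catalytic and the modifier subunit of glutamate-cysteine ligase, carry out the rate-limiting step of glutathione synthesis. A long isoform of cnc is the fly Nrf2 factor, which binds antioxidant response elements together with maf-S, and Keap1 holds it back in unstressed cells.

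In BDGP6.54 coordinates, Sod1 (FBgn0003462) lies at 3L:11112281-11113740 on the minus strand and Cat (FBgn0000261) at 3L:18822604-18828188 on the plus strand. Sod2 (FBgn0010213) lies at 2R:16772785-16773915 on the minus strand. Jafrac1 (FBgn0040309), which this annotation lists as Prx2, lies at X:13329824-13331994 on the plus strand, and Gclc (FBgn0040319) at X:8102181-8116147 on the minus strand. Gclm (FBgn0046114; 3R:22685006-22686510), Keap1 (FBgn0038475; 3R:17073942-17079945) and cnc (FBgn0262975; 3R:23185580-23226711) are all on the minus strand. The exons of cnc share 63 bases, 0.686% of their length, with Irk1 on the opposite strand, and reads there cannot be assigned to either gene because the strand setting of the counting was not given. The gene-level counts of cnc also hold the reads of all its isoforms.

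Across the 29 libraries, total counts ranged from 6877693 to 13315842 (median 9724388), and ribosomal RNA genes took 33.7% to 64.7% of them. Markers of eye disc progenitors (ey, toy, so, eya, dac, hth, tsh and Optix) had a summed level of 982 to 2665 CPM (counts scaled to library size) over the libraries, with medians of 76.8 CPM or more, although Optix reached 0 at the lowest. Per the study's methods, clones were taken anterior to the morphogenetic furrow, ahead of photoreceptor differentiation. The summed level of the 8 photoreceptor markers ranged from 37.3 to 1275 CPM (median 87.8) in Tsc1 libraries and from 79.8 to 1257 CPM (median 350.0) in libraries without the mutation, and none of the 8 had a median under 1 CPM. The 6 fat body markers summed to 854, 432 and 3102 CPM in replicates 3 and 4 of Tsc1 and replicate 3 of Tsc1 foxoRi under NR and to at most 59.5 CPM elsewhere, with Lsp1alpha and Fbp2 at a median under 1 CPM. Of the glial markers, repo, moody and gcm had medians under 1 CPM, whereas nrv2 and loco had medians of 71.1 and 38.9 CPM, and the 5 glial markers summed to 64.2 to 280 CPM. Of the hemocyte markers, srp, NimC1, Col4a1, vkg and Pxn had medians under 1 CPM and Hml one of 1.01 CPM. Their sum nevertheless ranged from 0.402 to 68.2 CPM in Tsc1 libraries and from 0.477 to 91.2 CPM in the others. Its highest group medians were 39.4 CPM in wt and 29.0 CPM in Tsc1 foxoRi clones, both under NR. Among muscle markers twi and up were under 1 CPM and Mef2 had 24.1 CPM, and among antennal markers Dll was under 1 CPM and danr had 86.0 CPM (medians). The RNAi target foxo had 22.6 to 77.9 CPM (median 35.2) in foxoRi libraries, against 24.1 to 70.3 CPM (median 34.2) in libraries without foxoRi, so that its mRNA level did not separate them. The study likewise saw no drop of foxo transcripts, while it judged the knockdown adequate from nuclear FoxO staining after a 12 h shift. Tsc1 mRNA, which a nonsense allele need not lower, had 13.6 to 42.9 CPM (median 21.3) in Tsc1 libraries, against 14.0 to 42.3 CPM (median 24.5) in the others. In these clones fewer cells of a type and less RNA per cell cannot be told apart.

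All 8 genes were detected in each of the 29 libraries and all passed the filter on low counts that left 13524 genes for testing. To compare genes, levels were set per kilobase of exon, merged over all isoforms. The median level was 126 CPM per kb for Sod1, 102 for Jafrac1, 26.7 for Cat, 25.1 for Sod2, 8.48 for cnc, 5.80 for Gclm, 2.01 for Gclc and 1.75 for Keap1. Neighbours in this order were not always apart. Sod1 was above Jafrac1 in 19 of 29 libraries, Cat above Sod2 in 14 and Gclc above Keap1 in 18, whereas Jafrac1 was above Cat and Sod2 above cnc in all 29. The 4 enzymes that act on superoxide and peroxide had the highest medians per kb, and both glutamate-cysteine ligase subunits and Keap1 the lowest. The place of cnc rests on its merged exon length of 9178 bases. By CPM alone, its median of 77.8 was above 53.3 for Cat and 25.5 for Sod2. The spread over libraries was smallest for cnc, with 44.0 to 105.0 CPM and a coefficient of variation of 16.6%. It was largest for Keap1 at 57.4% and Jafrac1 at 50.0%. Keap1 had 23.4 CPM in replicate 4 of Tsc1 on normal food and at most 13.2 CPM in any other library. Its coefficient of variation was 73.0% in Tsc1 libraries and 39.8% in libraries without the mutation.

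**Figure D1:**
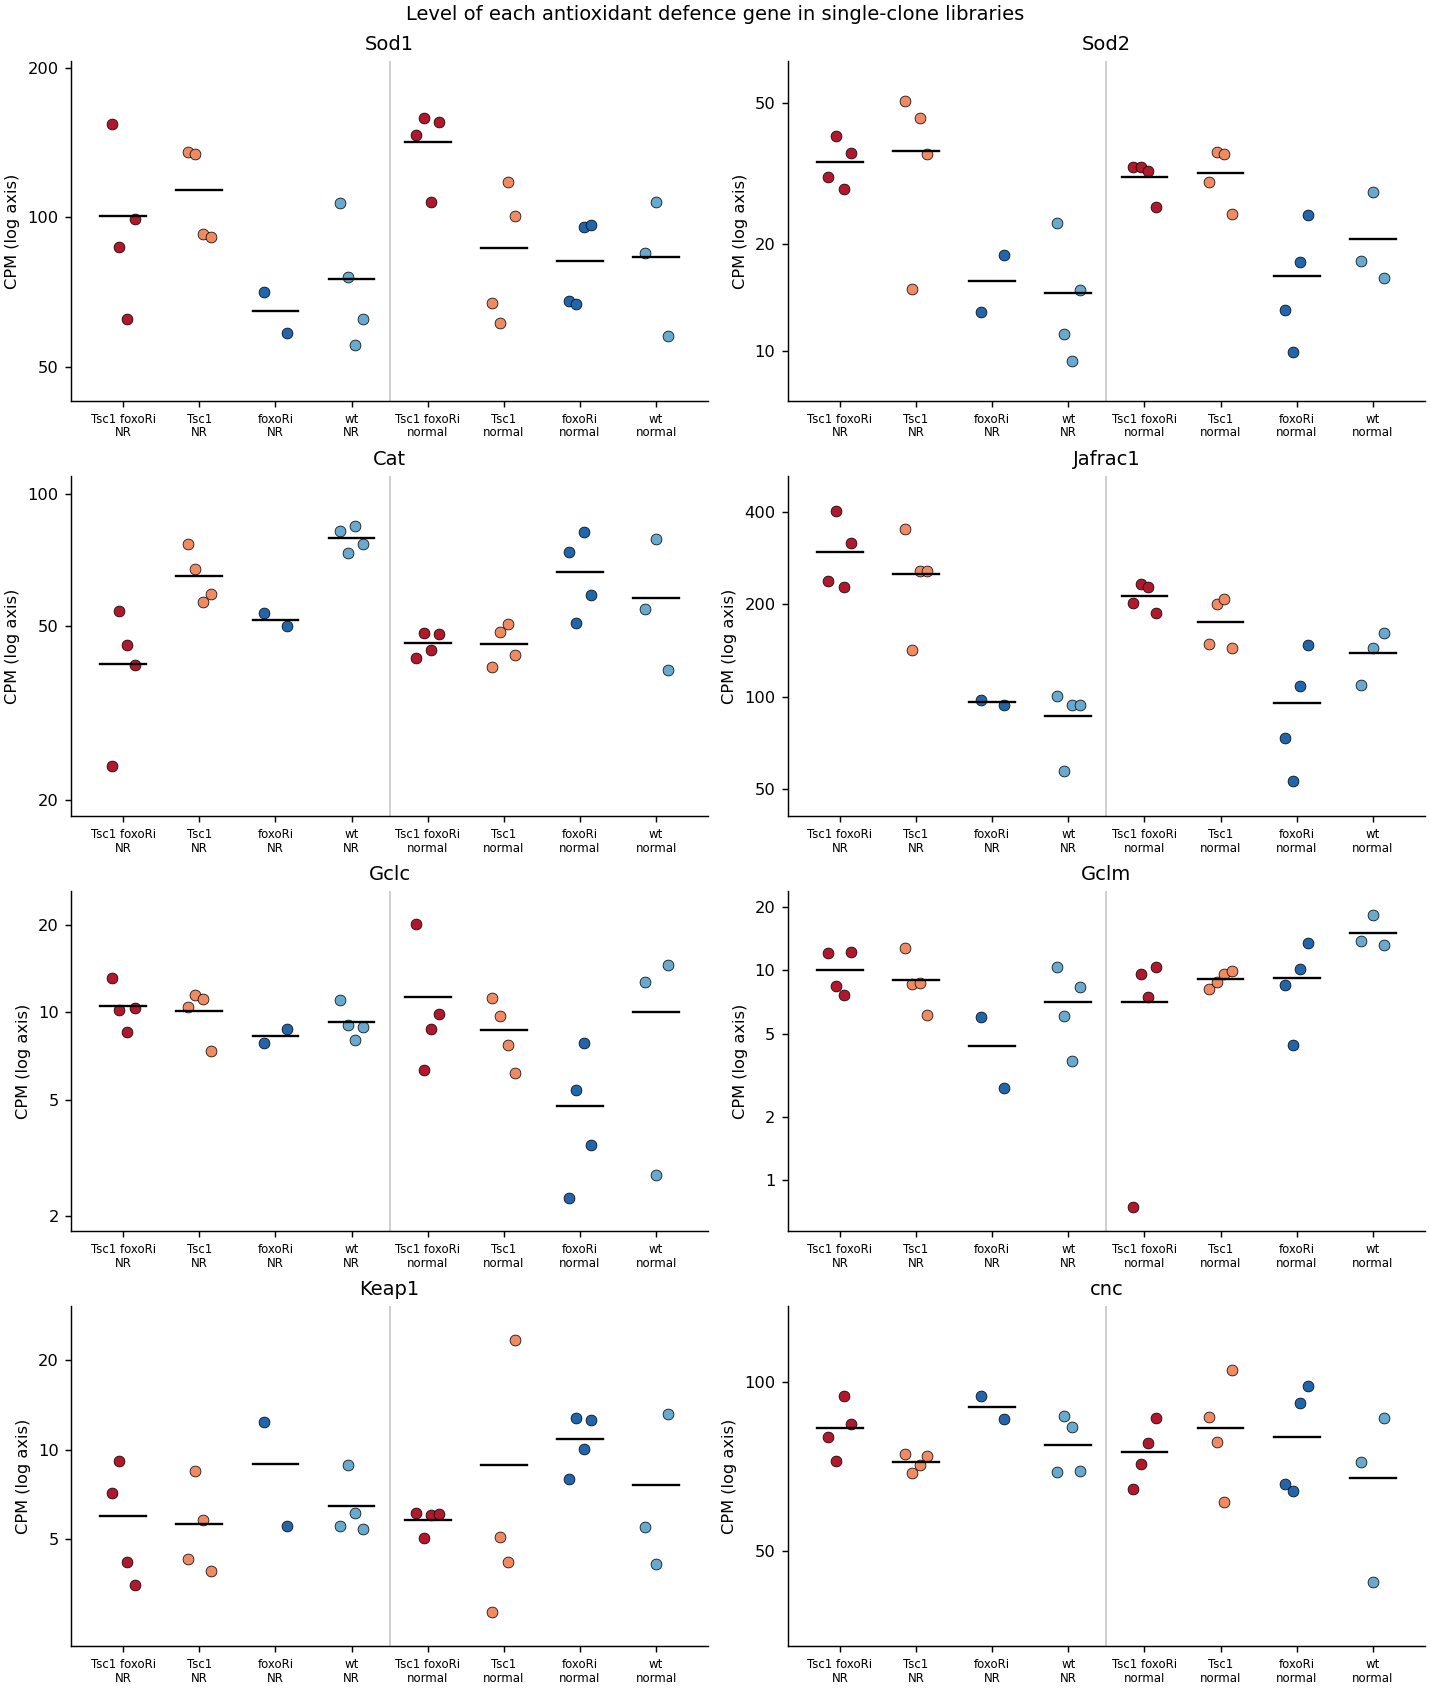
Level of each gene in CPM on a log axis, by group. Each point is 1 library and each bar the group mean. The groups under NR are left of the grey line, those on normal food right of it, and Tsc1 groups (red and orange) are left of the groups without the mutation (blue). Jafrac1 ranged from 142 to 402 CPM in Tsc1 libraries and from 53.2 to 162 CPM in the others, whereas cnc stayed between 44.0 and 105.0 CPM.

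Tsc1 mutant clones held more mRNA of the peroxiredoxin Jafrac1 and of mitochondrial Sod2. Averaged over the 4 pairs of groups that differ in the mutation, Jafrac1 was 2.24-fold (log2 fold change (FC) 1.16 ± 0.15, SE, adjusted p = 2.4e-05) and Sod2 2.0-fold higher (log2 FC 1.00 ± 0.18, adjusted p = 0.000865). A gene counted as called where its log2 FC exceeded 0.8 in size and its adjusted p was below 0.2 (edgeR's quasi-likelihood test, Benjamini-Hochberg over the 13524 genes). By this rule, 2 of the 8 genes were called, both upward, where 7.51% of all genes were called (764 upward and 252 downward). The median log2 FC was 0.24 over the 8 genes and 0.15 over all genes.

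Jafrac1 had 142 to 402 CPM (median 227) in the 16 Tsc1 libraries, against 53.2 to 162 CPM (median 97.8) in the 13 libraries without the mutation. Of the Tsc1 libraries, 13 were above the highest library without the mutation. Sod2 had 14.9 to 50.7 CPM (median 33.1) in Tsc1 libraries, against 9.36 to 28.1 CPM (median 16.1) in the others, and again 13 Tsc1 libraries were above the others. Both calls were kept when each of the 29 libraries was left out in turn, with log2 FC of 1.09 to 1.22 for Jafrac1 and 0.91 to 1.08 for Sod2.

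The median photoreceptor sum was lower in Tsc1 libraries (values above). In 6 of the 8 groups the library with the highest photoreceptor sum had the lowest Jafrac1, which was so for Sod2 in 3 of the 8. The share expected by chance was not computed. The 6 groups include foxoRi under NR with only 2 libraries, at 97.8 and 94.4 CPM of Jafrac1. In Tsc1 foxoRi on normal food, the library with the highest photoreceptor sum (342 CPM) had the highest Jafrac1 (233 CPM). The part of photoreceptor cells in the Tsc1 differences was not tested beyond using the photoreceptor sum as a covariate. With this sum as a covariate, the log2 FC were 0.91 ± 0.14 for Jafrac1 (adjusted p = 0.000212) and 0.70 ± 0.18 for Sod2 (adjusted p = 0.0243, under the fold threshold). With all 31 libraries, they were 0.90 for Jafrac1 (adjusted p = 0.0225) and 0.68 for Sod2 (adjusted p = 0.134, again under the fold threshold). The covariate was chosen after seeing the data.

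Cytosolic Sod1 and Cat passed the p threshold in opposite directions with smaller changes. Sod1 had 61.2 to 159 CPM (median 104) in Tsc1 libraries, against 55.4 to 108 CPM (median 70.8) in the others, with a log2 FC of 0.52 ± 0.15 (adjusted p = 0.0337). Cat had 23.9 to 76.9 CPM (median 48.0) in Tsc1 libraries, against 39.6 to 84.3 CPM (median 73.3) in the others, with a log2 FC of -0.38 ± 0.12 (adjusted p = 0.0629). The ranges overlapped for both genes, and neither reached the fold threshold. The remaining genes did not pass. The log2 FC was 0.38 ± 0.24 for Gclc, 0.11 ± 0.27 for Gclm, -0.36 ± 0.28 for Keap1 and -0.01 ± 0.11 for cnc, with adjusted p of 0.412, 0.936, 0.532 and 1.00.

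**Figure D2:**
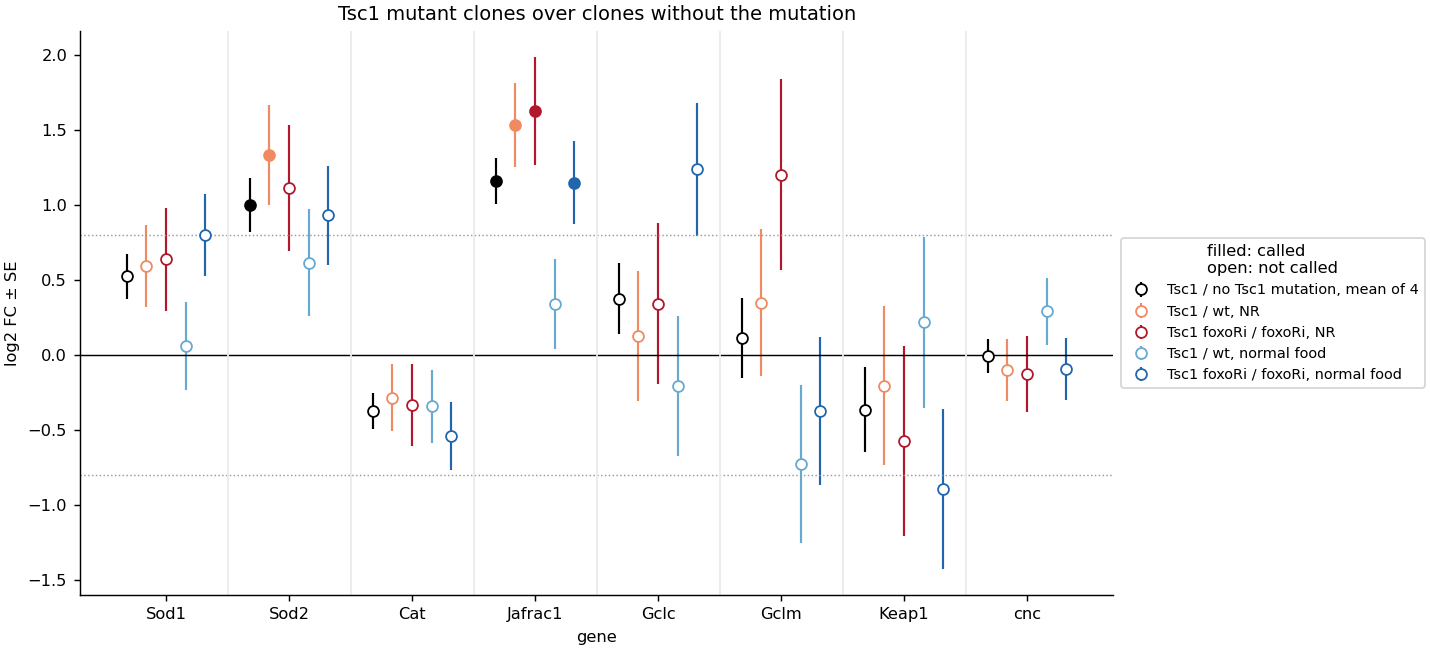
Log2 FC with SE of each gene in Tsc1 clones over clones without the mutation, for the mean of the 4 pairs of groups and for each pair. Dotted lines mark the fold threshold of 0.8, and filled points passed both thresholds. Jafrac1 was called in 4 of the 5 comparisons shown and Sod2 in 2, and cnc stayed between -0.13 and 0.29.

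Among the single pairs, which share libraries with the average, Tsc1 against wt clones under NR gave both calls. Jafrac1 had 351, 142, 257 and 256 CPM in Tsc1 clones, against 101, 57.5, 94.4 and 94.3 CPM in wt clones. Every Tsc1 clone was above every wt clone. The log2 FC was 1.53 ± 0.28 (adjusted p = 0.00978), and an exact two-sided permutation test of the log2 levels gave p = 0.0286, the smallest that 4 against 4 allows. Sod2 had 50.7, 14.9, 45.6 and 36.0 CPM in Tsc1 clones, against 23.0, 11.2, 9.36 and 14.8 CPM in wt clones. The Tsc1 library at 14.9 CPM lay inside the wt range, and the same library held 967 CPM of photoreceptor markers. The log2 FC was 1.33 ± 0.33 (adjusted p = 0.0970). These 2 of 8 genes compare with 0.665% of all genes called in this pair.

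The call of Sod2 in this pair was not stable. It was lost without Tsc1 replicate 1, 3 or 4 and without wt replicate 2, 3 or 4 (adjusted p 0.440, 0.400, 0.218, 0.3698, 0.385 and 0.287), at a log2 FC of 1.14 or more. Jafrac1 was called without each of the 8 libraries in turn. With all 31 libraries both calls were lost, at log2 FC of 1.52 for Jafrac1 (adjusted p = 0.560) and 1.33 for Sod2 (adjusted p = 1.0). Without the 3 libraries that held fat body markers, 2 of which are Tsc1 clones under NR, the log2 FC was 1.50 for Jafrac1 (adjusted p = 0.204) and 1.19 for Sod2 (adjusted p = 0.971), and neither was called. Sod1 had 136, 134, 92.4 and 91.5 CPM in Tsc1 clones, against 107, 75.7, 55.4 and 62.4 CPM in wt clones. The groups overlapped, and the log2 FC of 0.60 ± 0.27 was not called (adjusted p = 0.579).

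Under NR with foxo knockdown, Jafrac1 had 239, 402, 227 and 318 CPM in Tsc1 foxoRi clones, against 97.8 and 94.4 CPM in foxoRi clones. All Tsc1 foxoRi clones were above both foxoRi clones (log2 FC 1.63 ± 0.36, adjusted p = 0.0727; exact permutation p = 0.0667, the smallest that 4 against 2 allows). Jafrac1 was the only one of the 8 genes called, where 1.18% of all genes were called and the median log2 FC of all genes was 0.47. Sod2 had 31.0, 40.6, 28.7 and 36.2 CPM in Tsc1 foxoRi clones, against 12.9 and 18.6 CPM in foxoRi clones. The groups were apart but the log2 FC of 1.12 ± 0.42 was not called (adjusted p = 0.328). Gclm had 7.61 to 12.2 CPM in Tsc1 foxoRi clones, against 5.99 and 2.77 CPM in foxoRi clones, also apart and not called (adjusted p = 0.378). This pair rests on 2 foxoRi libraries. Without replicate 1 or replicate 2 of foxoRi the call of Jafrac1 was lost (adjusted p = 0.549 and 0.731), with the photoreceptor sum as covariate its log2 FC was 1.09 (adjusted p = 0.455), and both foxoRi libraries held more photoreceptor markers (580 and 734 CPM) than any Tsc1 foxoRi library under NR (at most 168 CPM). With the unused foxoRi library back in, the log2 FC was 0.31 for Jafrac1 and -0.03 for Sod2.

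On normal food with foxo knockdown, Jafrac1 had 202, 233, 228 and 187 CPM in Tsc1 foxoRi clones, against 73.7, 53.2, 108 and 148 CPM in foxoRi clones. The groups were apart, with a log2 FC of 1.15 ± 0.28 (adjusted p = 0.0786; exact permutation p = 0.0286). It was the only call among the 8 genes, where 0.791% of all genes were called. Sod2 had 33.0, 33.1, 32.3 and 25.5 CPM in Tsc1 foxoRi clones, against 13.05, 9.93, 17.8 and 24.2 CPM in foxoRi clones, and Sod1 had 147, 159, 108 and 156 CPM, against 67.8, 67.02, 95.7 and 96.7 CPM. Both were apart between the groups and neither was called, at log2 FC of 0.93 ± 0.33 and 0.80 ± 0.27 (adjusted p = 0.335 and 0.315).

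In the same pair Cat, in the other direction, had 42.2, 48.2, 43.9 and 47.8 CPM in Tsc1 foxoRi clones, against 73.7, 50.7, 81.9 and 58.7 CPM in foxoRi clones (log2 FC -0.54 ± 0.23, adjusted p = 0.397). Gclc had 20.03, 6.35, 8.78 and 9.88 CPM in Tsc1 foxoRi clones, against 2.30, 5.40, 7.81 and 3.49 CPM in foxoRi clones (log2 FC 1.24 ± 0.44, adjusted p = 0.341). The groups overlapped for Gclc, and replicate 1 of Tsc1 foxoRi, the highest in Gclc, was the lowest of all libraries in Gclm, at 0.746 CPM. Keap1 had 5.03 to 6.10 CPM in Tsc1 foxoRi clones, against 7.93 to 12.7 CPM in foxoRi clones, groups that were apart without a call (adjusted p = 0.556). The call of Jafrac1 was lost without replicate 2 or 3 of Tsc1 foxoRi (adjusted p = 0.224 and 0.218), without replicate 1 or 2 of foxoRi (0.274 and 0.323) with the photoreceptor sum as covariate (log2 FC 0.85, adjusted p = 0.236) and with all 31 libraries (log2 FC 1.14, adjusted p = 0.877).

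In Tsc1 against wt clones on normal food, none of the 8 genes was called or had an unadjusted p under 0.05 (also 0 called by DESeq2), where 1.21% of all genes were called and 10.7% had an unadjusted p under 0.05. Jafrac1 averaged 175 ± 33.8 CPM in Tsc1 clones and 138 ± 26.9 CPM in wt clones (SD, n = 4 and 3), with a log2 FC of 0.34 ± 0.30 (adjusted p = 0.718). Sod2 averaged 31.7 ± 5.75 CPM in Tsc1 clones and 20.7 ± 6.49 CPM in wt clones (log2 FC 0.62 ± 0.36, adjusted p = 0.533). Gclm had 8.17 to 9.91 CPM in Tsc1 clones, against 13.2 to 18.3 CPM in wt clones, apart but not called (adjusted p = 0.640).

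Whether the Tsc1 difference itself changed with food was tested as the difference of the 2 log2 FC against wt. For Jafrac1 it was larger under NR by 1.19 ± 0.40 on the log2 scale, which did not pass (unadjusted p = 0.00589, adjusted p = 0.423), and the values for Sod2 and Sod1 were 0.72 ± 0.48 and 0.53 ± 0.40. None of the 8 genes was called and 1 had an unadjusted p under 0.05 (0 called by DESeq2), where 0.118% of all genes were called and 9.17% had an unadjusted p under 0.05.

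Knockdown of foxo, with its shift to 30°C, called none of the 8 genes in any comparison by edgeR or DESeq2. Averaged over the 4 pairs of groups, 1 gene, Cat, had an unadjusted p under 0.05, where 0.902% of all genes were called and 10.8% had an unadjusted p under 0.05. Cat had 23.9 to 81.9 CPM (median 49.0) in foxoRi libraries, against 39.6 to 84.3 CPM (median 58.9) in libraries without foxoRi. The log2 FC was -0.27 ± 0.12 (adjusted p = 0.413). Jafrac1 and Sod2 differed little, with log2 FC of 0.03 ± 0.15 and -0.09 ± 0.18, and cnc had 0.13 ± 0.11.

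The lower values of Cat in foxoRi clones were seen under NR. In Tsc1 clones, Cat had 23.9, 53.9, 45.2 and 40.6 CPM with foxoRi, against 76.9, 67.2, 56.6 and 58.9 CPM without it. The groups were apart (exact permutation p = 0.0286) but the log2 FC of -0.66 ± 0.23 was not called (adjusted p = 0.429). It was the 1 gene of the 8 with an unadjusted p under 0.05 in this pair, where 0.873% of all genes were called and 6.28% had an unadjusted p under 0.05. In clones without the Tsc1 mutation, Cat had 53.3 and 49.8 CPM with foxoRi, against 82.1, 73.3, 84.3 and 76.6 CPM in wt clones (log2 FC -0.62 ± 0.28, adjusted p = 0.895; exact permutation p = 0.0667). The foxoRi clones were again below all wt clones. Cat was here too the 1 gene with an unadjusted p under 0.05, where 0.0% of all genes were called and 3.68% had an unadjusted p under 0.05.

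On normal food other genes had the smallest p upon knockdown. In Tsc1 clones, Sod1 had 147, 159, 108 and 156 CPM with foxoRi, against 67.2, 61.2, 118 and 101 CPM without it, with 1 overlapping library in each group. The log2 FC of 0.71 ± 0.27 was not called (adjusted p = 0.653), and Sod1 was the 1 gene with an unadjusted p under 0.05 (all genes: 0.0592% called, 7.62% under 0.05). In clones without the mutation, Gclc had 2.30, 5.40, 7.81 and 3.49 CPM with foxoRi, against 12.7, 2.75 and 14.5 CPM in wt clones. The wt library at 2.75 CPM lay among the foxoRi values, and the log2 FC of -1.07 ± 0.47 was not called (adjusted p = 0.540). Gclc was the 1 gene with an unadjusted p under 0.05 (all genes: 0.0813% called, 9.2% under 0.05).

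The effect of knockdown in Tsc1 clones was also compared between foods. It was lower under NR by 0.88 ± 0.39 on the log2 scale for Sod1 and by 0.67 ± 0.32 for Cat, the 2 genes with an unadjusted p under 0.05 (adjusted p = 0.897 and 0.954). None of the 8 genes was called (0 by DESeq2), where 0.0% of all genes were called and 5.17% had an unadjusted p under 0.05.

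NR itself, with its later dissection, called none of the 8 genes by edgeR or DESeq2. Averaged over the 4 genotypes, none had an unadjusted p under 0.05, where 0.104% of all genes were called and 6.91% had an unadjusted p under 0.05, and the log2 FC ranged between -0.41 ± 0.27 for Gclm and 0.20 ± 0.23 for Gclc.

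In wt clones, Jafrac1 had 101, 57.5, 94.4 and 94.3 CPM under NR, against 109, 145 and 162 CPM on normal food. All NR clones were below all clones on normal food (exact permutation p = 0.0286, the smallest that 4 against 3 allows), without a call (log2 FC -0.67 ± 0.29, adjusted p = 0.868). Gclm had 10.3, 6.07, 3.72 and 8.31 CPM under NR, against 13.8, 18.3 and 13.2 CPM on normal food, also apart without a call (log2 FC -1.09 ± 0.53, adjusted p = 0.868). These were the 2 genes with an unadjusted p under 0.05, where 0.0% of all genes were called and 5.33% had an unadjusted p under 0.05.

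In Tsc1 clones, Cat had 76.9, 67.2, 56.6 and 58.9 CPM under NR, against 40.3, 48.3, 50.5 and 42.8 CPM on normal food. The groups were apart (exact permutation p = 0.0286) and the log2 FC of 0.51 ± 0.22 was not called (adjusted p = 0.548). Cat was the 1 gene with an unadjusted p under 0.05 (all genes: 0.0444% called, 9.04% under 0.05). In Tsc1 foxoRi clones, 0 of the 8 genes had an unadjusted p under 0.05 (all genes: 1.55% called, 11.1% under 0.05). In foxoRi clones it was likewise 0 (all genes: 0.0% called, 3.87% under 0.05), and the largest difference was that of Gclm, with 4.38 ± 2.28 CPM under NR and 9.18 ± 3.79 CPM on normal food (SD, n = 2 and 4; adjusted p = 0.772).

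Over the 12 pairs of groups, 96 exact permutation tests were made of the 8 genes. Of these, 16 had groups that did not overlap, and how often this occurs among all genes was not computed. None passed after Benjamini-Hochberg adjustment over the 96 (smallest adjusted p = 0.274), so that the exact p-values above describe single genes only.

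**Figure D3:**
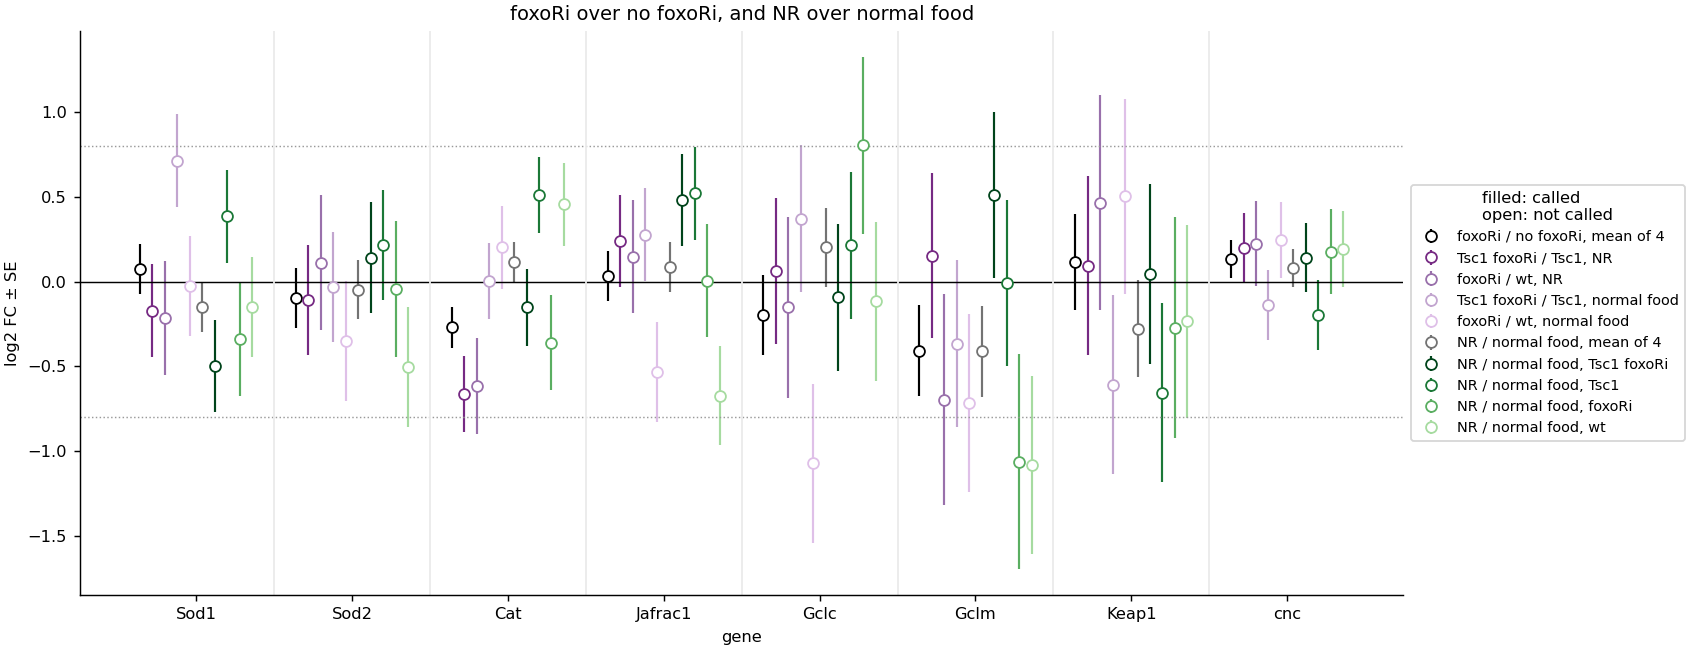
Log2 FC with SE of each gene for foxoRi over no foxoRi (purple, mean of the 4 pairs in black) and for NR over normal food (green, mean of the 4 genotypes in grey). Dotted lines mark the fold threshold of 0.8. All points are open, since none was called, and the 2 lowest for Cat, at -0.66 and -0.62, are the knockdown pairs under NR.

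Jafrac1 and Sod2 also varied together from clone to clone. Over the 29 libraries, the log2 levels of the 2 genes had a Pearson r of 0.90 and a Spearman rho of 0.91 (permutation p = 1e-05 for each, the smallest that 100000 permutations can give, adjusted p = 0.00028 over the 28 pairs of genes). Because Tsc1 clones were higher in both, the relation was computed within genotype classes as well. It was r = 0.77 and rho = 0.78 over the 16 Tsc1 libraries (permutation p = 0.00037 and 0.00066, adjusted p = 0.0104 and 0.0185) and r = 0.72 and rho = 0.67 over the 13 libraries without the mutation (permutation p = 0.00571 and 0.0144, adjusted p = 0.0813 and 0.101). On deviations from the group means, r was 0.78 (permutation within groups p = 0.00022, adjusted p = 0.00616). With all 31 libraries this r on deviations was 0.67 (adjusted p = 0.0832). Without the 2 libraries farthest from the median of Sod2, r over the remaining libraries was 0.89, and it was 0.69 within the Tsc1 libraries and 0.76 within the others after the same step. The library with the most photoreceptor markers was the lowest of its group in Jafrac1 in 6 of 8 groups and in Sod2 in 3. The share expected by chance was not computed. The part of photoreceptor cells in the relation of the 2 genes was not tested.

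No other pair passed an adjusted p of 0.05 for r. Sod1 had r = 0.50 with Sod2 and 0.48 with Jafrac1 (adjusted p = 0.0694 for both), and 0.23 and 0.09 on deviations from group means. Keap1 had r = -0.47 (permutation adjusted p = 0.0694) and rho = -0.53 (adjusted p = 0.0449) with Sod2. The subunits Gclc and Gclm did not vary together (r = -0.27, rho = 0.10, permutation p = 0.154 and 0.604), and the regulator pair Keap1 and cnc had r = 0.39 and rho = 0.27 (adjusted p = 0.156 and 0.351).

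**Figure D4:**
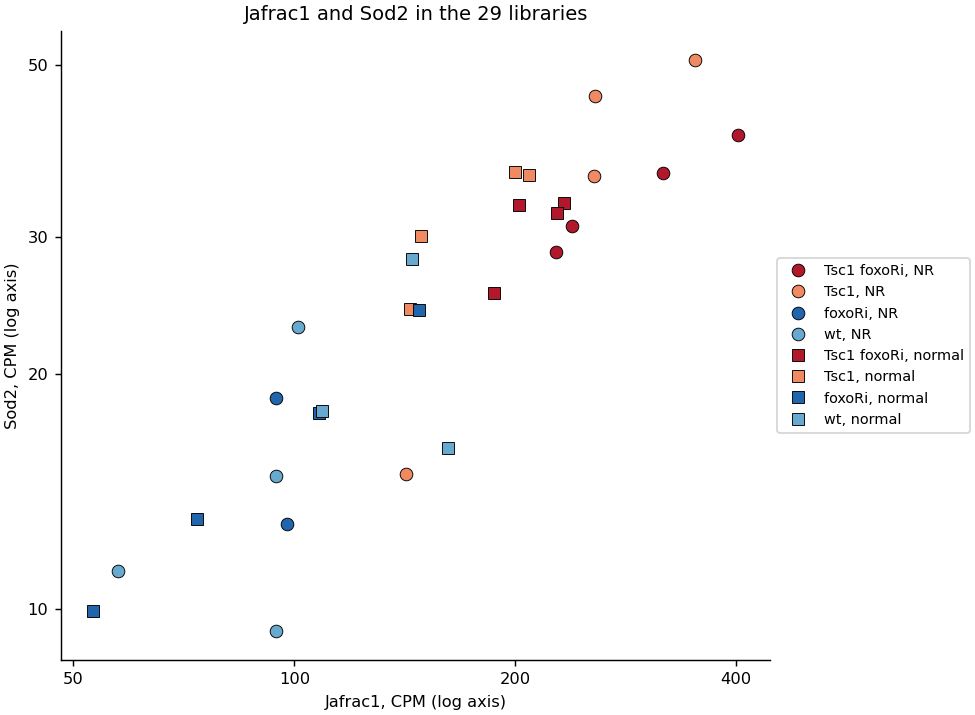
Sod2 against Jafrac1 in CPM, both on log axes, 1 point per library (circles under NR, squares on normal food, red and orange for Tsc1 groups, blue for groups without the mutation). The Tsc1 NR library at 142 and 14.9 CPM lies among the libraries without the mutation.

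The genes whose log2 levels were most like those of a member over the 29 libraries were looked up among the other 13523 tested genes. For Jafrac1 they were Sod2 (r = 0.90), Pepck1, the gluconeogenic enzyme phosphoenolpyruvate carboxykinase, and CG45087 (both 0.89), and for Sod2 they were Jafrac1, Lcp65Af (0.88), a larval cuticle protein, and FBgn0033342 (0.87), which the annotation did not match. Sod1 was closest to Taldo (0.81), the transaldolase of the pentose phosphate pathway, CG6180 (0.77) and nudC (0.76). Cat was closest to FBgn0014002 (0.73), also not matched, CG7601 and Npc1a (both 0.68), the last a cholesterol transporter. Gclc was closest to CG2247 (0.74), Opa1 (0.72), which fuses mitochondrial inner membranes, and CG9815 (0.69). Gclm was closest to qsm (0.84), CG12909 (0.77) and Got1 (0.75), an aspartate aminotransferase. Keap1 was closest to Ten-m (0.70), CG5639 and nab (both 0.68), and cnc to CG18596 (0.75), CG14073 (0.72) and Rab35 (0.69). These are the highest of 13523 correlations for each gene and are given as a description.

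Around the 8 genes, a list of 69 related genes was examined, of which 67 were in the table and 61 were tested. In the average over the 4 Tsc1 pairs, 4 of the 61 were called upward and 1 downward, which is 8.20% of the list, close to the 7.51% of all genes, and their median log2 FC was 0.36, against 0.15 for all genes. By list, 1 of 8 tested superoxide and peroxide genes, 1 of 13 of the peroxiredoxin and thioredoxin system and 1 of 4 of NADPH supply were called upward, and 1 of 18 of glutathione use upward and 1 downward. NADPH supply was represented by Men, the malic enzyme, with 14.3 to 70.6 CPM (median 26.8) in Tsc1 libraries, against 3.52 to 22.0 CPM (median 13.2) in the others (log2 FC 1.50 ± 0.22, adjusted p = 0.000114). GstS1, a sigma class glutathione S-transferase, had 102 to 425 CPM (median 189) in Tsc1 libraries, against 24.7 to 269 CPM (median 112) in the others (log2 FC 1.08 ± 0.17, adjusted p = 0.000176). The sestrin Sesn, a stress protein that restrains TORC1, had 2.12 to 9.37 CPM (median 4.39) in Tsc1 libraries, against 0.0 to 6.87 CPM (median 0.770) in the others (log2 FC 2.35 ± 0.50, adjusted p = 0.00404). The ranges overlapped for all 3 genes, and each call was kept without each of the 29 libraries in turn. Whether the difference from wt clones changed with food was tested as for the members, and edgeR called none of the 61 related genes. At an unadjusted p under 0.05 in edgeR there were 5 of the 61, or 8.2% against 9.17% of all genes. DESeq2 called 1 gene of NADPH supply. The group medians are given as a description. Median Sesn was 5.87 CPM in Tsc1 and 4.59 CPM in wt clones on normal food, against 7.27 and 0.481 CPM under NR. For Men, the Tsc1 and wt medians were 25.5 and 17.4 CPM under NR, against 49.1 and 6.55 CPM on normal food. For GstS1 they were 164 and 129 CPM under NR, against 355 and 149 CPM on normal food.

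The other 2 calls were weak. Trxr-2, a thioredoxin reductase, had at most 1.86 CPM in any library, and its call was lost without replicate 3 of Tsc1 on normal food (log2 FC 1.92, adjusted p = 1.00) or replicate 1 or 2 of foxoRi under NR (adjusted p = 0.313 and 0.351). GstZ2 had 0.0 to 39.8 CPM (median 1.99) in Tsc1 libraries, against 0.441 to 72.5 CPM (median 12.0) in the others (log2 FC -1.64 ± 0.69, adjusted p = 0.173), and its call held in 17 of the 29 fits that left out 1 library, and with the photoreceptor sum as covariate its log2 FC was -0.31. Of the genes below the fold threshold, the thioredoxin reductase Trxr-1, the mitochondrial peroxiredoxin Prx3 and the thioredoxin Trx-2 had log2 FC of 0.69 ± 0.16, 0.68 ± 0.23 and 0.47 ± 0.16 (adjusted p = 0.00686, 0.0769 and 0.0768), and the extracellular superoxide dismutase Sod3 had -0.45 ± 0.14 (adjusted p = 0.0477). None of the 10 genes listed as cnc partners, regulators or targets and none of the 8 iron and metal binding genes tested was called in this average, with 1 gene each at an unadjusted p under 0.05 and 0 called by DESeq2. Of these, the log2 FC was 0.45 ± 0.22 for the cnc partner maf-S (adjusted p = 0.258) and 0.37 ± 0.15 for the ferritin light chain Fer2LCH (adjusted p = 0.153).

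In single pairs, Men was called on normal food in Tsc1 over wt clones, with 48.8, 49.4, 61.4 and 22.8 CPM, against 13.2, 3.52 and 6.55 CPM (log2 FC 2.54 ± 0.45, adjusted p = 0.0108), and in Tsc1 foxoRi over foxoRi clones, with 52.2, 59.4, 70.6 and 31.8 CPM, against 4.35, 11.0, 19.1 and 16.9 CPM (log2 FC 2.06 ± 0.40, adjusted p = 0.0193). All Tsc1 clones were above all others in both pairs. With all 31 libraries neither was called (log2 FC 2.98 and 2.04, adjusted p = 0.206 and 0.864). Under NR, Men in Tsc1 foxoRi clones had 16.2 to 26.8 CPM, against 31.8 to 70.6 CPM on normal food, and was called downward (log2 FC -1.33 ± 0.39, adjusted p = 0.146), a call that held only without replicate 1 or 4 under NR or replicate 4 on normal food (adjusted p 0.134 to 0.400 over the 8 fits that left out 1 library). GstS1 was called in the same 2 pairs on normal food, with log2 FC of 1.35 ± 0.34 in Tsc1 over wt clones (adjusted p = 0.0954, kept only without replicate 1 or 4 of Tsc1 or replicate 1 of wt, with adjusted p of 0.0944 to 0.307) and 1.81 ± 0.31 in Tsc1 foxoRi over foxoRi clones (adjusted p = 0.00557).

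Sesn was called in Tsc1 over wt clones under NR, with 5.96, 8.57, 9.37 and 3.72 CPM, against 1.87, 0.770, 0.191 and 0.0 CPM (log2 FC 3.25 ± 0.91, adjusted p = 0.185). All Tsc1 clones were above all wt clones, and the call was kept only without replicate 2 of Tsc1 or replicate 1 of wt (adjusted p 0.0662 to 0.532). GstT1 in Tsc1 foxoRi over foxoRi clones under NR (log2 FC 1.70 ± 0.46, adjusted p = 0.138) and GstO2 in the same pair on normal food (0.91 ± 0.26, adjusted p = 0.183) were called as well. GstT1 was kept only without replicate 1, 3 or 4 of Tsc1 foxoRi (adjusted p up to 0.731) and the call of GstO2 was lost without any 1 of the 8 libraries (adjusted p 0.265 to 0.381).

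Upon foxo knockdown, 2 glutathione S-transferases were called downward in the average over the 4 pairs. GstS1 had 24.7 to 264 CPM (median 109) in foxoRi libraries, against 112 to 425 CPM (median 157) in libraries without foxoRi (log2 FC -0.96 ± 0.17, adjusted p = 0.00330), and was called without each library in turn. GstE12 had 4.21 to 55.3 CPM (median 20.3) in foxoRi libraries, against 17.5 to 75.6 CPM (median 35.9) in the others (log2 FC -0.94 ± 0.22, adjusted p = 0.0597), a call lost without replicate 2 of foxoRi under NR (adjusted p = 0.282). These were 2 of the 61 tested related genes, or 3.28%, where 0.902% of all genes were called. The median log2 FC was -0.22 over the 61 genes and -0.40 over the glutathione list that holds both, against 0.01 for all genes. In the average over food, edgeR called no related gene. At an unadjusted p under 0.05 there were 4 of the 61, or 6.56% against 6.91% of all genes, namely 2 superoxide and peroxide genes, 1 peroxiredoxin or thioredoxin gene and 1 glutathione gene, and DESeq2 called 1 superoxide and peroxide gene.

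**Figure D5:**
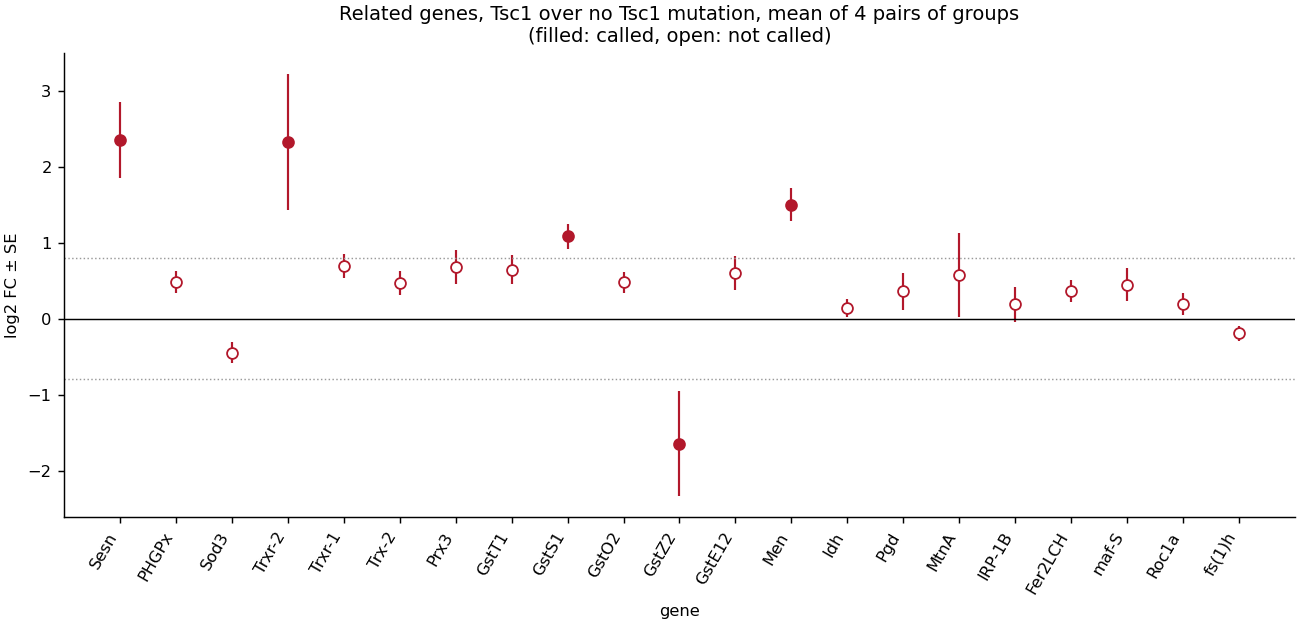
Log2 FC with SE in Tsc1 clones over clones without the mutation, averaged over the 4 pairs of groups, for the related genes named by the rule (called in any comparison, or the smallest p of their list). Filled points passed both thresholds. Sesn, Trxr-2, GstS1 and Men lie above the dotted line at 0.8 and GstZ2 below that at -0.8.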

How the data were processed

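The authors trimmed reads with Trimmomatic (per the labels), aligned them by STAR (BDGP6), used featureCounts for gene-level counting and deposited estimated counts without normalization in 1 table of 17559 genes. Versions, strand setting and treatment of multimapping reads are not given in the sources used here; 17.1% of values are not whole, and they were rounded to whole numbers. Of the gene identifiers, 17253 matched BDGP6.54 and 306 did not; ribosomal RNA genes stayed in. Genes were matched by FlyBase identifier, Jafrac1 through a RefSeq synonym of Prx2.

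The 17 comparisons used edgeR 4.0.16 in R 4.3.3 (TMM, filterByExpr, quasi-likelihood fit of all groups, 29 libraries). Each SE is the absolute log2 FC over the square root of F. CPM use TMM library sizes, and log2 levels add 2 CPM. Exact tests and 100000 permutations used Python 3.11.15 with numpy 2.4.6. A run of the fit on simulated counts checked its set-up only and does not show its power on these data. Members and lists were chosen with earlier results of these data known. Named genes were the 8 members, of the related genes those called in any comparison and, where a list had fewer than 3 such genes, its 3 with the smallest p in the averaged comparisons, and for each member the 3 most like genes. Alternatives were DESeq2 1.42.0, RLE scaling, all 31 libraries, no filter, no ribosomal RNA genes, only the groups compared, another threshold, the replicate number, single libraries left out and, added after seeing the data, 3 libraries with fat body markers left out and photoreceptor markers as a covariate. A planned promoter motif search was not run, and no sequences are shown.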

Additional observations from a re-analysis of the deposited data

Results flagged for a closer look

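In 48 sets of 4 libraries, 3 had 1 library far from the others by Dixon's ratio of the log2 levels, where chance flags about 1 in 20. These were the lowest Sod2 library of Tsc1 foxoRi on normal food (replicate 4, 25.5 CPM, ratio 0.898), the lowest Jafrac1 library of wt under NR (replicate 2, 57.5 CPM, ratio 0.878) and the lowest Keap1 library of Tsc1 foxoRi on normal food (replicate 2, 5.03 CPM, ratio 0.948). The ratio sets a gap against the range of its set, so that small differences can be flagged. The other Keap1 libraries of that group had 6.04 to 6.10 CPM. Keap1 at 23.4 CPM in replicate 4 of Tsc1 on normal food was not flagged.

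The unused library of foxoRi under NR (replicate 3) held more of 3 genes than any of the 29, with 506 CPM of Jafrac1, 70.4 CPM of Sod2 and 136 CPM of cnc after scaling with all 31 libraries. In the same library Sod1, Gclc, Gclm and Keap1 were at 0 counts.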

How the results depend on the processing

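Counts of called members and of correlated pairs were compared with those reported, under alternatives other than leaving out 1 library. Of these counts, 154 were within 1.5 times the reported count and 17 were not. The cause was not tested. Most comparisons had 0 called members, and 0 against 0 was taken as within. The 154 therefore does not measure how stable the calls were. With all 31 libraries, 0 members were called in Tsc1 over wt clones under NR and in both Tsc1 foxoRi over foxoRi pairs, 1 (Jafrac1) in the Tsc1 average and 1 (Jafrac1) in foxoRi over wt clones under NR, Sod2 in Tsc1 foxoRi over foxoRi clones under NR turned to a log2 FC of -0.0308, and 6 pairs of members were correlated in place of 1. Of the related genes, GstZ2 in the Tsc1 average, GstE12 in the knockdown average, Men, Sesn and GstS1 in Tsc1 over wt clones, Men and GstO2 in Tsc1 foxoRi over foxoRi clones and Men for food were then not called. At an adjusted p under 0.05 with no fold threshold, 1 was called in Tsc1 over wt clones under NR and 0 in both foxoRi pairs. With the photoreceptor covariate, it was 1 in Tsc1 over wt clones under NR, 0 in both foxoRi pairs and 1 in the average. Without the 3 libraries with fat body markers it was 0, and with only the groups compared 1, in Tsc1 over wt clones under NR. DESeq2 called 2 in each foxoRi pair, adding Sod2 under NR and Gclc on normal food. The share of all genes called under each alternative is not given here, so these counts only describe how stable the calls were. Leaving out single libraries gave 1 to 2 calls in Tsc1 over wt clones under NR, 0 to 1 in each foxoRi pair, 2 in the average and 0 in the others. Replicate numbers did not pair the libraries (mean correlation 0.03 over 92 same-numbered pairs, -0.01 over 274 others), and a fit with the number as a replicate block called 2, 1 and 1 members in these pairs, 2 in the average and 0 elsewhere, and ended the calls of Trxr-2 in the average, GstO2 and, for food, Men. RLE scaling or leaving out ribosomal RNA genes moved the median log2 FC of all genes by at most 0.0591. The median count per library was 60 for Keap1, 84 for Gclc and 85 for Gclm, against 1531 for Jafrac1, so that their differences were the least precise.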
